A study of Mus musculus with 8 samples.

Results

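The numbered Zfp genes are the mouse genes named Zfp with a number and nothing more, most of which encode C2H2 zinc finger proteins. Members were the table's genes whose symbol had this form, with Zfp36 (an mRNA-decay protein with a different type of finger) left out, and whose mean over the 8 libraries was at least 1 RPKM (reads scaled by transcript length and by library size). Of 360 such symbols among 27179 genes, 267 reached that level. The other 93 stayed below it, and 14 of those were at 0 in every library. The measured values entered the choice only through this mean.

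In a C2H2 zinc finger, a short loop of protein folds around a zinc ion, and arrays of such fingers read DNA sequence or, in some proteins, bind RNA. Many Zfp proteins also carry a KRAB domain, which recruits the scaffold TRIM28 (KAP1) and through it histone deacetylases, the methyltransferase SETDB1 and HP1 proteins, so that the bound DNA is silenced. KRAB zinc finger genes lie in clusters that arose by duplication and are best known for silencing endogenous retroviruses and guarding imprinted genes.

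The libraries were made from CD4+ T cells of the spleens of offspring of strain C.Cg-Foxp3tm2Tch/J at 8 weeks of age, a strain whose Foxp3 allele carries a fluorescent reporter that marks regulatory T cells. All groups carried this allele. Parents were untreated or drank water with 10 ppm cadmium chloride (CdCl2) during mating, the mothers also through pregnancy, and T cells of the offspring were sequenced unstimulated (0 h) or after 16 h with anti-CD3/CD28 beads, which mimic antigen and costimulation. The 4 groups were therefore control unstimulated, control stimulated, Cd unstimulated and Cd stimulated, with 2 libraries (replicates 6 and 7) each. The cells had been enriched by negative selection and then purified by flow sorting, and the study names the control offspring's cells as CD25-negative conventional T cells, a selection that leaves out most regulatory T cells. The labels do not say whether equal numbers mark 1 animal, so the p-values measure the spread between these libraries.

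The libraries held 15542731 to 25486790 reads on genes, and replicates correlated at 0.983 to 0.99 over genes. The CD4 T cell genes Cd3d, Cd3e, Cd3g, Cd4, Cd28 and Lck averaged 123 to 382 RPKM. Of 15 markers of B, myeloid, erythroid, CD8 and NK cells, 11 averaged under 1 RPKM, and Ms4a1 and S100a8 were at 0. Summed over the 15, the markers reached 19.0 to 20.7 RPKM in control unstimulated, 15.2 to 16.9 in control stimulated, 18.7 to 19.6 in Cd unstimulated and 16.4 to 16.7 in Cd stimulated libraries. The NK list was at 3.15 to 4.35 RPKM in unstimulated and 0.147 to 0.293 in stimulated libraries, and the myeloid list at 1.87 to 2.03 and 0.38 to 0.582. The B cell list was at 3.12 to 3.76 and 4.19 to 4.89, and the CD8 list at 9.52 to 10.7 and 10.3 to 11.8. Their part in the results below was not tested. In such bulk samples, fewer cells of a type and less RNA per cell cannot be told apart.

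Member levels ran from 1.06 to 67.3 RPKM with a median of 7.02, where the median of all 11560 genes at or above 1 RPKM was 13.2. There were 106 members from 1 to 5 RPKM, 131 from 5 to 20 and 30 above 20, and 249 were at 1 RPKM or more in all 8 libraries. Together they took 0.999% to 1.06% of a library's reads. A member's value in a library rested on a median of 420 reads, and the fewest were 5. Just inside the limit lay Zfp937 (mean 1.06), Zfp992 (1.09) and Zfp647 (1.09), and just outside it Zfp619 (0.992), Zfp934 (0.889) and Zfp750 (0.877). Zfp239, Zfp428, Zfp296, Zfp558, Zfp128 and Zfp992 averaged below 1 RPKM in unstimulated cells, and Zfp433 and Zfp937 in stimulated cells, so that these 8 reached the limit through 1 condition.

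The 267 genes lay on 20 chromosomes, 68 of them on chromosome 7. RefSeq listed 266 as protein coding and 1, Zfp783, as a long non-coding RNA. In the longest reading frame of their transcripts, 153 had a KRAB pattern and 113 had none, with a median of 12 and 7 zinc fingers. The most fingers in 1 frame was 36, and 4 frames had none by the pattern used. The KRAB members had a median level of 4.78 RPKM and those without the pattern 9.99. Runs of at least 5 numbered Zfp genes held 116 members, 90 of them with the KRAB pattern, while 93 members stood alone, 27 of them with it. Duplication also leaves shared sequence: in 194 of 266 members no 100-base window of the longest transcript recurred in another gene, but in 28 more than 10% did and in 7 more than 50%, up to 100% for Zfp708. How the authors counted reads that align to several places is not given, so values of these 28 are uncertain. There were 92 members that overlap another gene, and without strand their reads cannot be told apart.

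The promoters of 3 neighbouring genes on chromosome 17 are shown because Zfp52 and Zfp948 gave the second and the fourth largest increases with stimulation in control offspring, while Zfp53, just before them, did not pass the test. They are RefSeq sequences of GRCm38.p6, plus strand, from 250 bases before to 50 after the start. Capitals mark every run of at least 10 bases that all 3 promoters hold.
Zfp52, chr17:21535289-21535588: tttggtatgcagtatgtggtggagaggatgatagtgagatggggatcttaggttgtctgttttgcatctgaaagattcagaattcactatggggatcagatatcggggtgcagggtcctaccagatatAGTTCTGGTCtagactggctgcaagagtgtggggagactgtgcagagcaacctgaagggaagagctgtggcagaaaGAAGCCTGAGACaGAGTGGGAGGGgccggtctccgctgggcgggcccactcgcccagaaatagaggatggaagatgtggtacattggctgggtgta
Zfp948, chr17:21566728-21567027: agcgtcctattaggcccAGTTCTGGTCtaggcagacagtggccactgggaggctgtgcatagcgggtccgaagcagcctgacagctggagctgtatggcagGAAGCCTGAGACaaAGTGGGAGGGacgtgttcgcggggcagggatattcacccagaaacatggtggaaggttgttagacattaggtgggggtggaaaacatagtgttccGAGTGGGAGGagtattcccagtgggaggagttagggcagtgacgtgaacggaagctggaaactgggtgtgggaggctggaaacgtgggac
Zfp53, chr17:21488738-21489037: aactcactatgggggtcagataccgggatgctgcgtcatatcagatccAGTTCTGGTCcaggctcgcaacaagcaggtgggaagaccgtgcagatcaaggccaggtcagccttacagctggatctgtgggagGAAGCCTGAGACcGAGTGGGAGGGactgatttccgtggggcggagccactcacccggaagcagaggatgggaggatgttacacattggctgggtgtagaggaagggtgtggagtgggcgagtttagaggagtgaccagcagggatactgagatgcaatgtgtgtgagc

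The capitals cover 33 of 300 bases in Zfp52 and Zfp53 and 42 in Zfp948. The 12-base block GAAGCCTGAGAC, searched on both strands, was in 6 of 32851 promoters (0.0183%), and these 3 were the only ones among the 19 promoters of the run. The 10-base block AGTTCTGGTC was in 34 promoters (0.103%). These 2 blocks stood in front of 2 genes that rose and 1 that did not pass. The other capitals are commoner: AGTGGGAGGG was in 185 promoters (0.563%) and GAGTGGGAGG in 163 (0.496%), each in 5 of the 19 promoters of the run, among them those of Zfp946, which rose, and, for the latter, of Zfp983, which fell.

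Most numbered Zfp genes stayed near their resting RPKM, which is a share of a library's reads and not an amount per cell. In control offspring 203 members (76.0%) stayed within 1.5-fold, where 58.1% of all genes did, and in Cd offspring 204 (76.4%), where 57.5% did. At an adjusted p under 0.01 and over 2-fold (limma, Benjamini-Hochberg over 12605 genes), 12 members rose and 3 fell in control offspring, that is 4.49% and 1.12% of the members beside 11.5% and 7.17% of all genes. In Cd offspring 14 rose (5.24%) and 4 fell (1.5%), beside 11.4% and 7.24%. The rises include Zfp296 and Zfp239 in both offspring and Zfp428 in Cd offspring, which reached the limit of 1 RPKM only through their stimulated libraries. Without Cd unstimulated replicate 6, 9 rose in Cd offspring, and with a pseudocount of 1 in place of 0.1, 7 rose in control and 6 in Cd offspring. By level, 6.67% of 75 members from 2 to 5 RPKM passed this rule in control offspring, beside 22.0% of 1760 genes of that level, and 3.33% of 30 members from 20 RPKM, beside 19.0% of 4225 genes.

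Without the fold limit, at an adjusted p under 0.05, 78 members rose and 64 fell in control offspring (29.2% and 24.0%), beside 36.9% and 27.8% of all genes. In Cd offspring 68 rose and 74 fell (25.5% and 27.7%), beside 36.5% and 29.4%, and without Cd stimulated replicate 6 the rises in Cd offspring were 45. The shortfall varied with level. From 20 RPKM, 80.0% of 30 members passed in either direction in each offspring, beside 76.8% and 78.8% of 4225 genes. Members of lower levels passed less often than all genes in control offspring. Their shares were 48.4% beside 49.8% from 1 to 2 RPKM and 48.0% beside 56.25% from 2 to 5. From 5 to 10 RPKM they were 46.6% beside 62.4%, and from 10 to 20 RPKM 56.9% beside 70.0%. The median log2 fold change of the members was 0.03 in control and -0.03 in Cd offspring, and that of all genes 0.07 and 0.05. The split depends on scaling: with median-of-ratios scaling 69 members rose and 80 fell in control and 58 and 87 in Cd offspring, and with quantile normalization 66 and 82, and 55 and 94. In control offspring the majority turned from rises to falls, and in Cd offspring falls outnumbered rises on all 3 scales. Over 2-fold, rises outnumbered falls on all 3, with 11 and 4, then 11 and 5, in control offspring and 10 and 5, then 11 and 6, in Cd offspring.

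**Figure D1:**
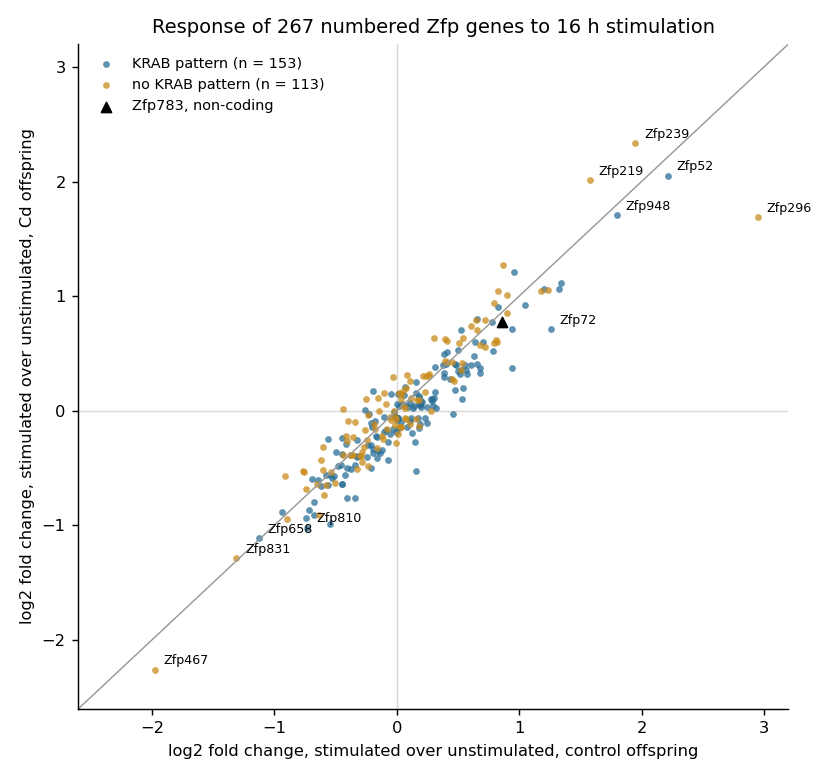
Log2 fold change with stimulation of each of the 267 genes in control offspring (x axis) and in Cd offspring (y axis), 4 libraries behind each axis, coloured by KRAB pattern, with the line of equal response. Most genes sit near 0 and near the line, and Zfp296 lies farthest from it, at 2.95 and 1.69.

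The fold changes in control and Cd offspring, which share no library, ran alike. The calls came from 1 fit over all 8 libraries with a shared estimate of spread, so they are not independent. Over the 267 members the log2 fold changes correlated at r = 0.937, given as a description since genes are not independent replicates, and 230 had the same sign. Over all 12605 genes r was 0.906, and 11117 had the same sign. At an adjusted p under 0.05 in both, 62 members rose, 57 fell and none went opposite ways, while 102 passed in neither. Of all 12605 genes, 4060 rose, 2990 fell, 53 went opposite ways and 3238 passed in neither. Those that passed in both in 1 direction were 44.6% of the members and 55.9% of all genes. Over 2-fold in both, 10 members rose and 3 fell, beside 1205 and 695 of all 12605 genes.

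Zfp467, which has 12 fingers and no KRAB pattern, showed the largest fall. It stood at 4.69 and 4.78 RPKM in the control unstimulated libraries and at 1.21 and 1.05 in the stimulated ones, and in Cd offspring at 5.64 and 4.53 against 0.961 and 0.989. Every stimulated library was below every unstimulated one. The log2 fold changes were -1.98 ± 0.15 (SE, adjusted p = 1.84e-05) and -2.26 ± 0.15 (adjusted p = 9.6e-06). Zfp831, a gene expressed in lymphocytes, was more abundant: 25.3 and 26.1 RPKM in control unstimulated, 26.1 and 26.1 in Cd unstimulated, 10.4 and 10.2 in control stimulated and 10.5 and 10.9 in Cd stimulated libraries. Its 4 unstimulated values lay within 1 RPKM of each other and well above the stimulated ones, a fall by 1.31 ± 0.06 and by 1.28 ± 0.06 on the log2 scale (SE, adjusted p = 1.16e-06 and 1.38e-06). Zfp658, a KRAB gene with 21 fingers on chromosome 7, went from 6.2 and 7.08 to 2.91 and 3.04 RPKM in control and from 6.82 and 6.24 to 2.91 and 3.02 in Cd offspring. The groups did not overlap, and the adjusted p was 5.5e-05 and 6.06e-05. These 3 were all the members that fell over 2-fold in both. Zfp810, a KRAB gene, fell over 2-fold in Cd offspring (-1.02 ± 0.11, adjusted p = 0.000133) and by 0.73 ± 0.11 on the log2 scale in control offspring (adjusted p = 0.00078).

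Zfp296, a zinc finger protein studied in pluripotent and germ cells, had the largest rise and the fewest reads. It was at 0.182 and 0.361 RPKM in the control unstimulated libraries, on 5 and 9 reads, and at 2.82 and 2.55 after stimulation, on 67 and 76. In Cd offspring it went from 0.505 and 0.605 (15 and 19 reads) to 2.14 and 1.87 (72 and 73 reads). All stimulated libraries were above all unstimulated ones, with log2 fold changes of 2.95 ± 0.27 and 1.69 ± 0.27 (adjusted p = 4.55e-05 and 0.000928), which the pseudocount of 0.1 understates at this level. It is a member only through its stimulated libraries, so a rise was built into its choice. Its RefSeq promoter (GRCm38.p6, plus strand) is shown as that of the member with the largest rise; capitals mark CACGTG, the E-box, found in 7.15% of all 32851 promoters, 10.2% of the 11563 promoters of tested genes and 7.27% of the 275 member promoters.
Zfp296, chr7:19577037-19577336: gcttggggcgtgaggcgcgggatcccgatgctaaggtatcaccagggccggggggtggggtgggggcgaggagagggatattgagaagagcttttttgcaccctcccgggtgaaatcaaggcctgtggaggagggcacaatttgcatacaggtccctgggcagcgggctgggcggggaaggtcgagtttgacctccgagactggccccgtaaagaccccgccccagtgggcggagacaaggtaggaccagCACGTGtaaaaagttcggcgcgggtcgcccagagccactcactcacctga

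Zfp52 combined a large rise with a high final level. It stood at 6.36 and 5.20 RPKM in control unstimulated and 28.1 and 26.0 in control stimulated libraries, and at 6.33 and 6.54 against 27.7 and 26.3 in Cd offspring. Unstimulated and stimulated libraries were far apart, and control and Cd libraries lay together, at 4.64-fold and 4.15-fold (adjusted p = 1.58e-06 and 2.28e-06). Zfp948, the next gene along the chromosome, went from 1.28 and 1.56 to 4.85 and 5.50 RPKM in control and from 1.31 and 1.37 to 4.99 and 4.23 in Cd offspring, 3.48-fold and 3.26-fold (adjusted p = 2.98e-05 and 3.99e-05). Both are KRAB genes, with 14 and 15 fingers. None of the 100-base windows of either recurred in another gene, but Zfp52 overlaps the non-coding 9330136K24Rik.

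Zfp239 and Zfp219 have no KRAB pattern. Zfp239 was at 0.632 and 0.829 RPKM in control unstimulated, 0.513 and 0.485 in Cd unstimulated, 2.97 and 3.2 in control stimulated and 2.72 and 3.12 in Cd stimulated libraries. Zfp219, described as a partner of SOX9 in cartilage, was at 5.03 and 5.44, then 4.14 and 3.99, then 15.4 and 16.1, then 16.0 and 17.5 RPKM in the same order of groups. In both genes the 2 Cd unstimulated libraries were the lowest of all 8 and the stimulated libraries were the highest. The log2 fold changes with stimulation were 1.95 ± 0.18 and 2.33 ± 0.18 for Zfp239 (adjusted p = 5.44e-05 and 2.2e-05), and 1.57 ± 0.08 and 2.01 ± 0.08 for Zfp219 (adjusted p = 2.77e-06 and 1.13e-06). Zfp239 likewise reached the limit only through stimulated cells. Zfp219 overlaps Arhgef40 and Tmem253.

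Zfp202, a gene with both a SCAN and a KRAB pattern, rose 2.54-fold and 2.17-fold from about 1 RPKM (adjusted p = 0.000368 and 0.001). The remaining members over 2-fold in both were Zfp599, Zfp770, Zfp760 and Zfp106, named because their number is small, at 2.07-fold to 2.51-fold. Zfp72 and Zfp930 passed in control offspring alone and Zfp428, Zfp771, Zfp422 and Zfp667 in Cd offspring alone, but each was at 1.64-fold or more in both, and the difference between the responses was called for none of them.

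**Figure D2:**
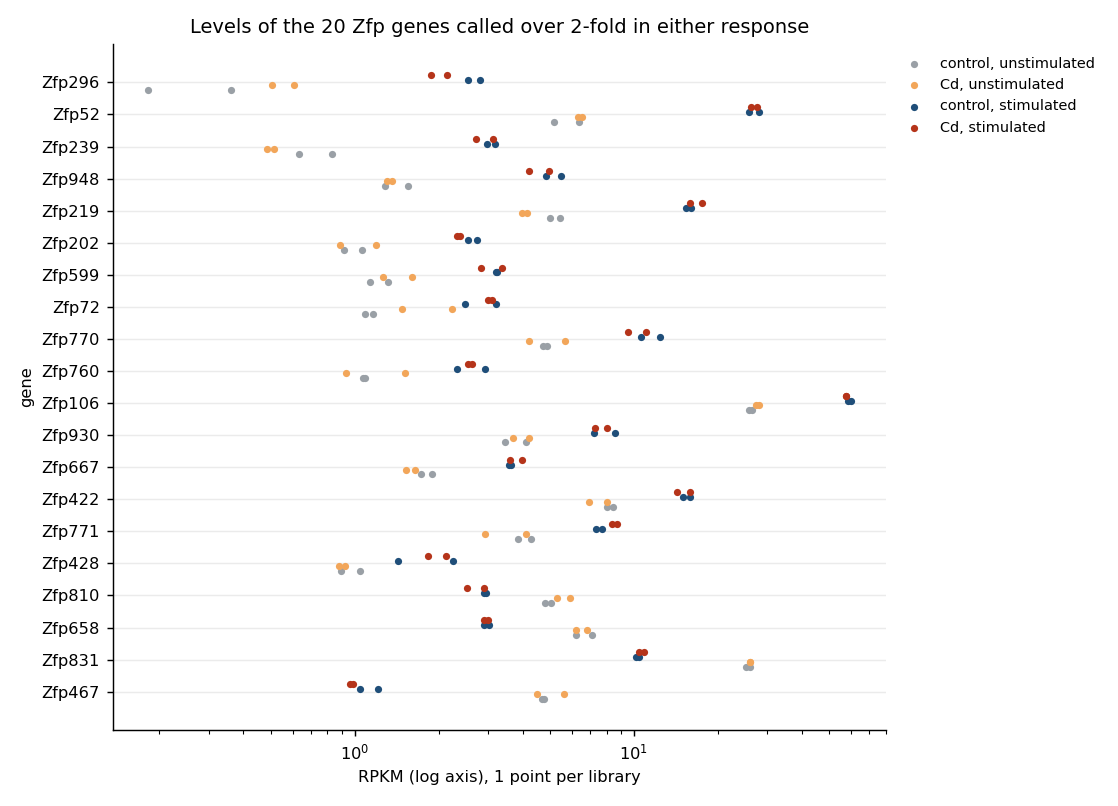
RPKM (log axis) of the 20 members called over 2-fold in either response, 1 point per library, grouped by exposure and stimulation and ordered by the fold change in control offspring. Points of 1 condition lie together for most genes, and Zfp296, at 0.182 to 0.605 RPKM in unstimulated cells, has the widest gap.

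Zfp783, the long non-coding member (chromosome 6, 47943175 to 47954549), was at 1.91 and 2.65 RPKM in control unstimulated, 2.45 and 2.38 in Cd unstimulated, 3.73 and 4.68 in control stimulated and 3.91 and 4.51 in Cd stimulated libraries. All 4 stimulated libraries were above all 4 unstimulated ones. It rose 1.82-fold in control and 1.71-fold in Cd offspring (log2 0.86 ± 0.18 and 0.77 ± 0.18, adjusted p = 0.00418 and 0.007). Its end overlaps the start of the protein-coding Zfp956, which went from 7.06 ± 1.18 to 4.61 ± 0.62 RPKM in control (SD, n = 2) and fell in both offspring (adjusted p = 0.007 and 0.0131), so that the 2 overlapping genes moved in opposite directions.

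Members with a described role were read by list. Of 8 members tied to RNA and the ribosome, at an adjusted p under 0.05, 2 rose and 1 fell in control and 2 rose and 3 fell in Cd offspring, beside 36.9% and 27.8% of all genes in control and 36.5% and 29.4% in Cd offspring. Zfp106, an RNA-binding protein needed by motor neurons, went from 25.8 and 26.6 to 60.2 and 58.8 RPKM in control and from 27.5 and 28.2 to 57.9 and 57.5 in Cd offspring, a rise of 1.18 ± 0.05 and 1.05 ± 0.05 on the log2 scale (SE, adjusted p = 8.79e-07 and 1.44e-06). Zfp598, the ubiquitin ligase that senses collided ribosomes, rose 1.33-fold and 1.52-fold (adjusted p = 0.00488 and 0.000677). Zfp622, whose human counterpart acts in the maturation of the large ribosomal subunit, fell from 40.7 and 35.8 to 25.5 and 24.1 RPKM in control offspring (adjusted p = 0.00114), and by 0.43 ± 0.10 on the log2 scale in Cd offspring (adjusted p = 0.00706). Zfp638, a nucleic acid binding factor that recruits the HUSH silencing complex, did not pass in control offspring (34.1 and 34.1 RPKM on average, adjusted p = 0.979) and fell in Cd offspring, from 38.7 and 42.1 to 34.7 and 31.7 RPKM (adjusted p = 0.00812). Zfp326 fell in Cd offspring (adjusted p = 0.0261), while Zfp346, Zfp830 and Zfp706 passed in neither, with log2 fold changes from -0.07 to 0.17.

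Of 6 members tied to cell division and genome structure, 2 rose (33.3%) and 1 fell (16.7%) in each offspring, beside 36.9% and 27.8% of all genes in control and 36.5% and 29.4% in Cd offspring. Zfp207 (BuGZ), which helps chromosomes attach to the spindle, was the most abundant member. It went from 50.8 and 47.3 to 88.6 and 83.6 RPKM in control and from 48.2 and 57.6 to 82.2 and 79.9 in Cd offspring, with no overlap between conditions (1.75-fold and 1.54-fold, adjusted p = 0.000102 and 0.000444). Zfp609, linked to the cohesin loader NIPBL, rose 1.65-fold and 1.73-fold (adjusted p = 0.000113 and 7.26e-05). Zfp143, which binds promoters and has been linked to chromatin loops, fell from 20.4 and 21.0 to 13.4 and 12.9 RPKM in control and from 21.8 and 21.5 to 13.4 and 14.4 in Cd offspring (adjusted p = 5.04e-05 and 5.6e-05). Zfp451, a SUMO ligase, Zfp410, a regulator of Chd4, and Zfp668 did not pass, with log2 fold changes from -0.15 to 0.11.

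Of 6 members with roles in lymphocytes, 2 rose and 2 fell in each offspring, shares near those of all genes (36.9% and 27.8%, then 36.5% and 29.4%). Zfp318, which governs IgD splicing in B cells, rose 1.57-fold and 1.73-fold, from 6.92 ± 0.23 to 10.9 ± 0.15 RPKM in control offspring (SD, n = 2, adjusted p = 0.000144) and likewise in Cd offspring (adjusted p = 5.05e-05). Zfp281, a regulator of pluripotent cells with a role in T cells, rose 1.37-fold and 1.21-fold (adjusted p = 0.00106 and 0.0119). Beside Zfp831, Zfp335, which thymocytes need to mature, fell by 0.28 ± 0.09 and by 0.36 ± 0.09 on the log2 scale (adjusted p = 0.0242 and 0.00793). Zfp91 and Zfp148 passed in neither. Zfp608 of the same list was at 0.536 RPKM and was no member.

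Of 5 members that act as chromatin cofactors, 4 fell in each offspring and none rose, where 27.8% and 29.4% of all genes fell. Zfp516 of the same list, below the limit at 0.678 RPKM and so no member, rose in both (log2 0.92 ± 0.23 and 1.49 ± 0.23, adjusted p = 0.00994 and 0.000894). Zfp703, a cofactor in breast epithelium, fell most, from 11 and 10.3 to 5.16 and 6.07 RPKM in control and from 10.3 and 7.84 to 5.66 and 6.36 in Cd offspring (adjusted p = 0.000909 and 0.00925). Zfp217, a CtBP-associated repressor, fell from 30.6 ± 1.8 to 21.0 ± 0.2 RPKM in control and from 31.2 ± 0.1 to 21.5 ± 0.02 in Cd offspring (SD, n = 2, adjusted p = 9.04e-05 and 9.85e-05). Zfp592 and Zfp687, which form a complex with ZMYND8, fell together, Zfp592 by 0.40 ± 0.05 and 0.26 ± 0.05 and Zfp687 by 0.37 ± 0.10 and 0.39 ± 0.10 on the log2 scale (adjusted p from 0.00027 to 0.0147). Zfp644 passed in neither.

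Among 5 KRAB members known for binding retroelements or imprinted regions, 3 rose in control and 2 in Cd offspring, and none fell, where 36.9% and 36.5% of all genes rose. Zfp809, which silences murine leukaemia virus, went from 12.5 and 13.3 to 16.9 and 17 RPKM in control and from 12.9 and 13.1 to 19.0 and 17.7 in Cd offspring (adjusted p = 0.00112 and 0.000324). Zfp568, which represses a placental Igf2 transcript, rose 1.32-fold and 1.33-fold (adjusted p = 0.00673 and 0.0063). Zfp445, a guardian of imprints, rose 1.14-fold in control offspring (adjusted p = 0.0178) and had an adjusted p of 0.0953 in Cd offspring. Zfp932 had adjusted p of 0.0677 and 0.0541, and Zfp708, all of whose windows recur in another gene, 0.173 and 0.599. Zfp57, the other imprint guardian, was at 0.0225 RPKM and was no member.

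**Figure D3:**
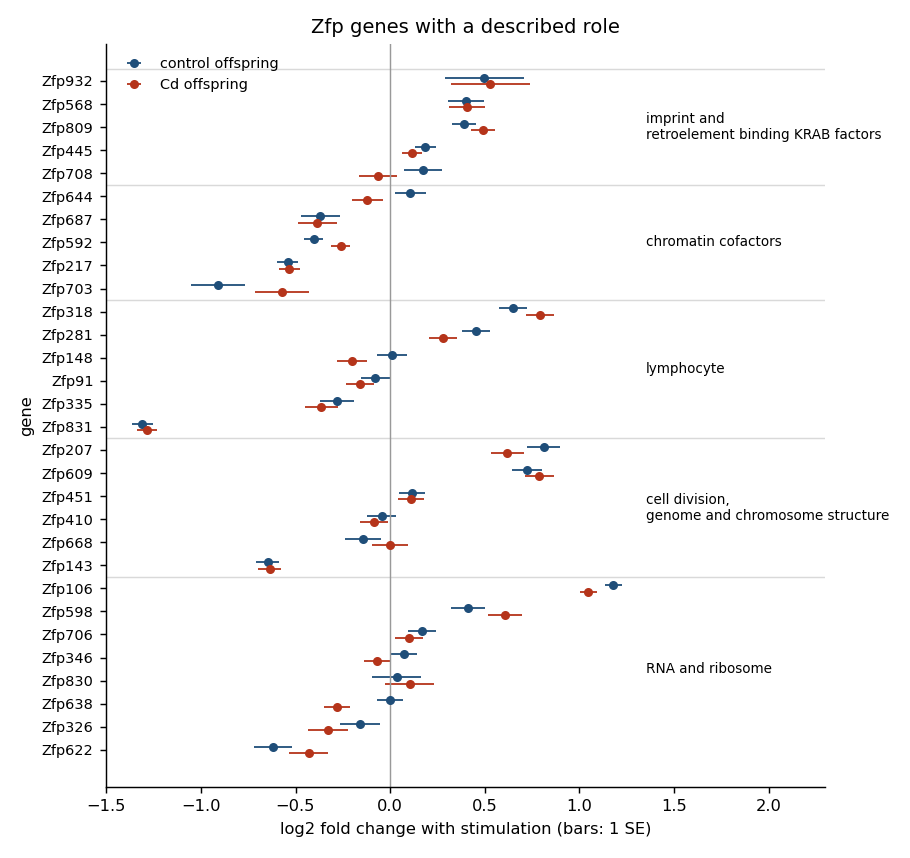
Log2 fold change with stimulation (x axis, bars 1 SE) of the members of the 5 role lists in control and Cd offspring. The cofactors lie mostly left of 0, down to -0.91 for Zfp703, and the 5 retroelement and imprint factors lie right of 0 in control offspring.

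Genes of the KRAB co-repressor machinery mostly rose, by a margin that depends on scaling. Log2 fold changes were above 0 for 16 of 20 in each offspring, also with median-of-ratios scaling. With quantile normalization they were above 0 for 15 in control and 12 in Cd offspring. Of 20 tested, 13 rose and 3 fell in control offspring and 11 rose and 3 fell in Cd offspring at an adjusted p under 0.05, the rule that 36.9% and 36.5% of all genes passed upward. Trim28 rose by 0.83 and 0.71 on the log2 scale, Cbx5 (HP1 alpha) by 1.46 and 1.24, Hdac2 by 0.77 and 0.75 and Uhrf1 by 3.60 and 3.63. The 3 that fell were Chd3, by 1.16 and 1.18, Atf7ip, by 0.58 and 0.82, and Morc3, by 0.27 and 0.45.

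Members with the KRAB pattern and members without it had median log2 fold changes of 0.07 and 0.02 in control offspring. In Cd offspring these medians were -0.03 and -0.0037. The KRAB median in control offspring was -0.01 with median-of-ratios scaling and -0.03 with quantile normalization, so its sign depends on scaling. At an adjusted p under 0.05, 44 of 153 KRAB members rose and 32 fell in control offspring and 31 rose and 42 fell in Cd offspring, beside 36.9% and 27.8% of all genes in control and 36.5% and 29.4% in Cd offspring. Of the 113 without the pattern 33 rose and 32 fell, and 36 rose and 32 fell. The 31 members with 3 fingers or fewer had medians of 0.17 and 0.26 and the 70 with 14 or more 0.04 and -0.09. By level, the median in control offspring went from 0.32 for the 31 members under 2 RPKM to -0.10 for the 30 members from 20 RPKM. Near the limit, 6 members reached 1 RPKM only through stimulated cells and 2 only through unstimulated cells. For these a change in that direction was built into the choice, although a limit on the mean weighs both conditions alike.

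Neighbouring genes moved both ways in some runs and one way in others. The run around Zfp52 on chromosome 17 (21383707 to 22456689) holds 18 numbered Zfp genes, of which 15 were members, all with the KRAB pattern. In control offspring 4 of them rose and 5 fell at an adjusted p under 0.05, and in Cd offspring 4 rose and 7 fell. Of all genes, 36.9% rose and 27.8% fell in control offspring, and 36.5% and 29.4% in Cd offspring. Zfp52, Zfp948, Zfp760 and Zfp946 were the 4 that rose. Zfp51, 2 genes before Zfp52, fell from 18.7 ± 0.4 to 12.0 ± 1.0 RPKM (SD, n = 2, adjusted p = 0.00106), and Zfp983, between Zfp948 and Zfp760, from 4.52 ± 0.22 to 2.80 ± 0.43 (adjusted p = 0.00321), while Zfp53 was at 23.6 ± 2.2 and 23.1 ± 1.6 RPKM (adjusted p = 0.81). The run on chromosome 6 that holds Zfp783 had 7 members, of which Zfp783 and Zfp282 rose and the other 5 fell in both offspring. On chromosome 9 Zfp809 and Zfp599, which overlap, rose, and Zfp810, the next gene, fell. Other runs, picked from 16 after their values were seen, leaned one way, on 4 or 5 members each. On chromosome 7 (27731409 to 28014210) all 5 members, each with the KRAB pattern, had log2 fold changes above 0 in control offspring, and 3 of them, Zfp626, Zfp974 and Zfp850, rose in both offspring and none fell. In another run of chromosome 7 (6131489 to 6396637) 3 of 4 members, Zfp444, Zfp667 and Zfp28, rose in both and none fell. On chromosome 8 (69610654 to 69774911) 3 of 4 members, Zfp868, Zfp869 and Zfp963, fell in both and none rose. In that run a median of 6.11% of a member's windows recurred in another gene. Of all 12605 genes, 4060 rose and 2990 fell in both offspring. The run with the most members, on chromosome 13 (67038594 to 67827000), held 18, all with the KRAB pattern. There 3 rose and 3 fell in control offspring, and none rose and 4 fell in Cd offspring.

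**Figure D4:**
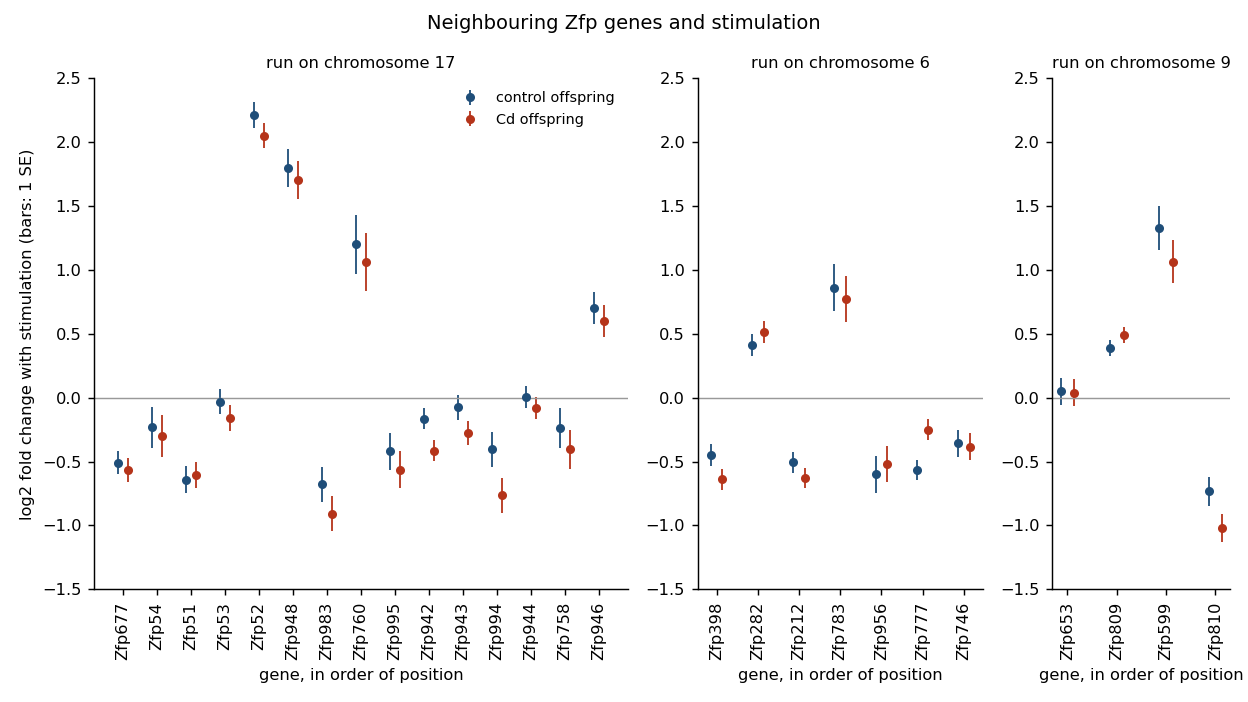
Log2 fold change with stimulation (y axis, bars 1 SE) of neighbouring members in order of position in 3 runs, in control and Cd offspring. In the chromosome 17 run Zfp52, Zfp948 and Zfp760 stand at 1.06 to 2.21, the members directly beside these 3 lie below 0, and Zfp946 at the end of the run is at 0.70 and 0.60.

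The members' promoters were also read for composition and short motifs. The table of RefSeq promoters held 275 for 227 of the 267 members, with a median GC content of 55.7% and 16 CpG, beside 60.7% and 20 for the promoters of all tested genes. For KRAB members the values were 52.7% and 11. CCGGAAGT, the ETS motif, searched on both strands, was in 11.3% of member promoters, in 8.68% of those of tested genes and in 3.89% of all. AAGATGGC, the YY1 motif, was in 5.82%, 4.70% and 2.75%, GCGCATGC, the NRF1 core, in 5.45%, 5.37% and 2.71%, and TGACTCA, the AP-1 motif, in 3.64%, 3.37% and 5.20%. TGACGTCA, the CRE motif, was in 3.27% of member promoters, 3.17% of those of tested genes and 1.79% of all.

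Parental Cd was compared next, to ask whether the offspring's resting or stimulated cells differed in these genes. In unstimulated cells no member passed an adjusted p under 0.05 (limma), where 17 genes were higher (0.135%) and 96 lower (0.762%) among all. At an unadjusted p under 0.05, 10 members were higher and 8 lower (3.75% and 3%), beside 6.44% and 7.43% of all genes. Both Cd libraries were above both control libraries for 64 members (24.0%) and below for 32 (12.0%), beside 22.3% and 20% of all genes.

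Zfp219 had the lowest p, at 5.03 and 5.44 RPKM in control and 4.14 and 3.99 in Cd unstimulated libraries. The log2 difference was -0.35 ± 0.08 (limma, adjusted p = 0.134). Zfp101, a KRAB gene of chromosome 17, was at 2.97 and 3.28 against 4.04 and 5.01 RPKM (0.51 ± 0.14, adjusted p = 0.184), and Zfp638 at 33.6 and 34.7 against 38.7 and 42.1 (0.24 ± 0.07, adjusted p = 0.21). In each the 2 groups did not overlap, and none passed after adjustment over all genes.

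In stimulated cells no member and none of the 12605 genes passed (0% in either direction), and 1 member had an unadjusted p under 0.05, beside 1.76% of all genes higher and 1.52% lower. Both Cd libraries were above both control libraries for 36 members (13.5%) and below for 68 (25.5%), beside 16% and 20.6%. The lowest p were those of Zfp846 (0.33 ± 0.12), Zfp346 (-0.16 ± 0.07) and Zfp800 (-0.17 ± 0.07), each with an adjusted p of 1.

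The difference in response, tested as the interaction, was called for no member, beside 0.301% of all genes with a more positive and 0.0555% with a more negative log2 fold change in Cd than in control offspring. At an unadjusted p under 0.05 there were 4 and 5 members (1.5% and 1.87%), beside 5.51% and 5.06%. Zfp219 had the lowest p, 0.44 ± 0.11 higher on the log2 scale in Cd offspring (adjusted p = 0.246), followed by Zfp101 (-0.68 ± 0.20, adjusted p = 0.294) and Zfp524 (0.45 ± 0.13, adjusted p = 0.299). Zfp524 went from 13 ± 0.4 to 9.56 ± 0.50 RPKM in control and from 11 ± 1.3 to 11 ± 0.1 in Cd offspring (SD, n = 2), and 43.6% of its windows recur in another gene. Zfp296, whose 2 responses lay farthest apart, had a difference of -1.26 ± 0.38 (adjusted p = 0.31).

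The KRAB members leaned in opposite directions in the 2 Cd comparisons, by small amounts. In unstimulated cells 112 of 153 had a higher mean in Cd offspring, with a median log2 difference of 0.08, while 60 of the 113 without the pattern did, with a median of 0.01, and so did 6510 of all 12605 genes (median 0.01). In stimulated cells 108 of the 153 had a lower mean, with a median of -0.05, and 57 of the 113, with a median of -0.00013, beside 6819 of all genes (median -0.01). In the difference in response, which is made of the same libraries, 116 of the 153 were below 0 with a median of -0.12, beside 56 of the 113 (median 0.0026) and 6666 of all genes (-0.01). With 1 library left out this median stayed between -0.16 and -0.07, with 102 to 125 below 0. Both Cd medians move with single libraries. In the 2 Cd unstimulated libraries the KRAB members lay at -0.0027 (replicate 6) and 0.08 (replicate 7) from their mean over 8 libraries, and in the 2 Cd stimulated libraries at 0.05 and -0.05. Without Cd unstimulated replicate 7 the first median was 0.03, with 90 of 153 higher, and without Cd stimulated replicate 7 the second was 0.00033, with 76 of 153 lower.

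**Figure D5:**
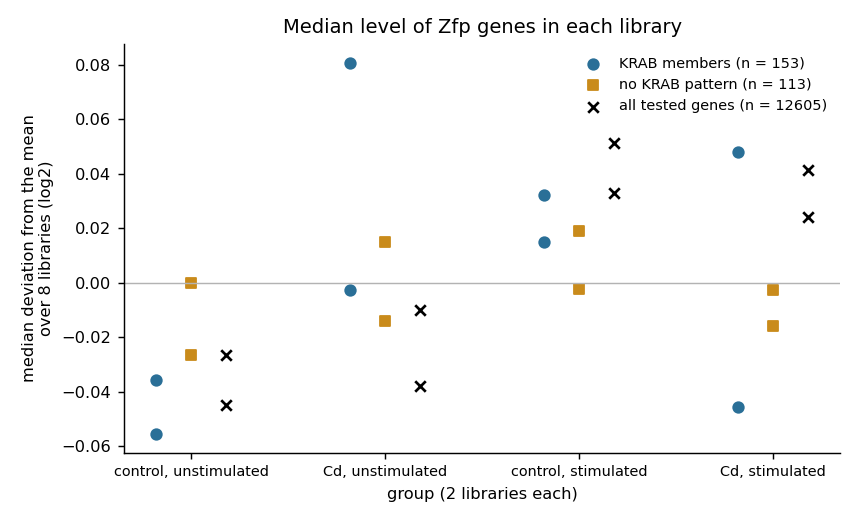
Median deviation (log2) of the KRAB members, the members without the pattern and all tested genes from their mean over the 8 libraries, 1 point per library, by group. The 2 KRAB points lie at -0.0027 and 0.08 in the Cd unstimulated group and at -0.05 and 0.05 in the Cd stimulated group.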

How the data were processed

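Per the labels' protocols, mRNA libraries were made with the KAPA mRNA HyperPrep Kit. The submitters' processing notes name Subread, featureCounts and mm10, with versions and the handling of strand and of reads that align to several places not given in the sources used here. The authors deposited 1 table of log2 values. Read from the values, each is log2(RPKM + 1) + 0.0001, so RPKM was computed back from it. The test had been planned for RPKM and was run on these values. The spacing of low RPKM values gave back whole reads and library sizes for 17759 genes, with a tolerance of 0.02 reads that widened with the rounding error of larger values.

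Values of log2(RPKM + 0.1) for the 12605 genes with a mean of at least 0.5 RPKM entered 1 model of 4 group means over all 8 libraries (limma 3.58.1, R 4.3.3), moderation with a trend, and Benjamini-Hochberg adjustment over all genes. Fold changes are on this scale, which understates those of low genes. Stimulation was called at an adjusted p under 0.01 and over 2-fold, and Cd and the difference in response at an adjusted p under 0.05. With 2 libraries per group, an exact permutation test of 1 gene cannot go below a two-sided p of 0.333. On simulated reads for the control stimulation comparison (12572 genes, 200 changed), 3-fold changes were called in 91.5% at the 2-fold rule. The 1.5-fold changes were called in 62.5% at an adjusted p under 0.05 and in 0% at the 2-fold rule. The simulation used 1 spread for all genes and changed far fewer than passed in the data (36.9% higher and 27.8% lower at an adjusted p under 0.05). Its rates therefore need not hold for the data.

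No protein table was used here: fingers, KRAB and SCAN patterns were searched in the longest reading frame of GENCODE vM21 transcripts, locations and promoters were RefSeq's for GRCm38.p6, and a run was a series of numbered Zfp genes with gaps up to 250000 bases. Named genes were Zfp783, the role lists, the members called over 2-fold in both offspring (10 lowest, 6 highest), the 3 lowest p in each Cd comparison, the 5 highest levels and the 3 nearest the limit, and neighbours named beyond these were chosen after their values were seen. The members and lists were chosen with earlier results of these data known. The labels do not say whether equal numbers mark 1 animal, and deviations from the group means of same-numbered libraries correlated at -0.112 to 0.064, so the fit had no block, and blocks were tried as alternatives. Medians by KRAB pattern under each alternative were added after seeing the data. Alternatives were other pseudocounts, filters, scalings, blocks, voom on whole reads and leaving out each library. The result of 1 marker gene is not reported here.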

Additional observations from a re-analysis of the deposited data

How the results depend on the processing

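Over 2-fold, the rises in control offspring (12) were 7 with a pseudocount of 1 and 11 to 15 with 1 library left out, and the falls (3) were 5 with quantile normalization and 3 to 4 with 1 left out. In Cd offspring the rises (14) were 8 with a pseudocount of 0.5, 6 with 1 and 9 to 14 with 1 library left out, the lowest without Cd unstimulated replicate 6, and the falls (4) were 2 with a pseudocount of 1 and 3 to 6 with 1 left out. At an adjusted p under 0.05, rises in Cd offspring (68) were 45 to 62 with 1 library left out, the lowest without Cd stimulated replicate 6. The median log2 fold change of the members in control offspring (0.0343) was -0.0434 with median-of-ratios scaling, -0.0551 with quantile normalization and 0.036 to 0.0618 with 1 library left out. In Cd offspring (-0.0269) it was -0.0801, -0.0874 and -0.0628 to 0.0115. With 1 left out, the medians were 0.017 to 0.0572 for Cd in unstimulated cells, -0.0537 to -0.0007 in stimulated cells and -0.1013 to -0.0487 for the difference. The cause was not tested. No member was called for Cd or the difference in any alternative run.

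With the replicate number as a block, control offspring had 12 rises and 3 falls over 2-fold and Cd offspring 14 and 4, and with the offspring label as the block 12 and 3, and 13 and 4. Whether the labels pair animals is not given. With voom on whole reads the counts were 13 and 3, and 14 and 5. Limits of 0.5 and 2 RPKM gave 285 and 236 members.

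Single genes that turned direction had not passed the test. In control offspring, median-of-ratios scaling gave -0.0055 for Zfp346, -0.0438 for Zfp830, -0.0671 for Zfp148 and -0.0586 for Zfp647, and quantile normalization -0.0498, -0.0676, -0.1088 and -0.0549, with -0.0127 for Zfp451 and -0.0154 for Zfp644. With 1 library left out, Zfp638 ranged from -0.0514 to 0.0469, Zfp830 from -0.1143 to 0.1821, Zfp410 from -0.1081 to 0.0192, Zfp91 from -0.1621 to 0.0061, Zfp148 from -0.0195 to 0.0417 and Zfp647 from -0.255 to 0.2812. In Cd offspring, Zfp668 was at -0.0559 with median-of-ratios scaling and -0.1183 with quantile normalization, which also gave -0.0217 for Zfp706, -0.0081 for Zfp451, -0.0523 for Zfp445 and 0.0255 for Zfp992. With 1 left out, Zfp830 ranged from -0.0171 to 0.225, Zfp668 from -0.0939 to 0.0967, Zfp647 from -0.0573 to 0.3498 and Zfp992 from -0.1174 to 0.0636. Low reads limit Zfp296 most, on 5 to 19 reads in unstimulated libraries.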

Other observations

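Other zinc finger families gave further values. Of 34 Zbtb genes at 1 RPKM or more, which join C2H2 fingers to a BTB domain, 4 rose and none fell over 2-fold in control offspring, and 2 rose and 1 fell in Cd offspring. At an adjusted p under 0.05 (limma), 12 rose and 10 fell, and 11 rose and 10 fell, with median log2 fold changes of 0.11 and 0.08. Of 19 Zscan and Zkscan genes, which carry SCAN domains, none rose and 2 fell over 2-fold in each offspring, 7 rose and 7 fell, and 6 rose and 8 fell, at an adjusted p under 0.05, and the medians were -0.13 and -0.11. Of all genes, 11.5% rose and 7.17% fell over 2-fold in control offspring, and 11.4% and 7.24% in Cd offspring. At an adjusted p under 0.05 these shares were 36.9% and 27.8%, then 36.5% and 29.4%. In no Cd comparison did a gene of either family pass.

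Zfp740, with 2 fingers and the second highest level among the members, fell from 54.7 and 51.5 to 41.6 and 39.8 RPKM in control and from 52.0 and 54.8 to 41.9 and 39.8 in Cd offspring (limma, adjusted p = 0.000667 and 0.000636). The 4 stimulated libraries were below the 4 unstimulated ones. On chromosome 7 (4915181 to 5053723), a run of 6 members without the KRAB pattern, Zfp628, Zfp579, Zfp524, Zfp865, Zfp784 and Zfp580, had a lower mean in Cd than in control unstimulated cells for 6 of 6, with a median log2 difference of -0.24, and none passed (lowest unadjusted p 0.033 for Zfp524). Of all 12605 genes, 6094 had a lower mean in Cd unstimulated cells. The run was singled out from 16 after its values were seen.

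Of the 93 numbered Zfp genes below 1 RPKM, 18 were tested. Over 2-fold, 2 of them rose in each offspring (11.1%), beside 11.5% and 11.4% of all genes, and none was called in a Cd comparison.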
